A study of Rattus norvegicus with 6 samples.

Results

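Voltage-gated calcium channel subunits were examined in the rat heart primordium around the start of the heartbeat, as 10 genes chosen by name: the L-type pore genes Cacna1c, Cacna1d and Cacna1s, the T-type pore genes Cacna1g and Cacna1h, the beta subunit genes Cacnb1, Cacnb2 and Cacnb3, and the alpha2delta subunit genes Cacna2d1 and Cacna2d2. They were measured by 13 of the 30367 probes of the array, and 10 of these probes, covering 8 of the 10 genes, were among the 19297 probes tested. Heart primordia were taken from Wistar rat embryos on embryonic day 10. There were 3 samples in the pre-heartbeat group, whose primordium was flat in the center, and 3 in the post-heartbeat group, whose primordium was raised in the center. The paper gives a higher range of somite number for the post-heartbeat group, and it set the groups apart from earlier ex vivo work only. Developmental stage and heartbeat therefore cannot be told apart. No treatment is given for either group, and all samples were labeled from 10 ng of total RNA and hybridized to 1-color arrays, 1 array for each sample. The first and second heart fields were not separated, and how many primordia made up an array sample is not stated, so p-values measure only the spread between these samples, which may be technical. In such bulk samples, fewer cells of a type and less RNA per cell cannot be told apart.

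A voltage-gated calcium channel opens when the membrane depolarizes and lets calcium into the cell. Its pore is a single large alpha1 protein, the product of a Cacna1 gene. Of the L-type pores, that of Cacna1c opens at strong depolarization and carries the calcium current that triggers contraction of the working myocardium. T-type pores open at more negative potentials and are known for their part in pacemaking cells and in the embryonic heart. Beta subunits bind the pore inside the cell, and alpha2delta subunits bind it outside, and both raise the number of channels at the membrane and shape their gating.

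Each probe is an oligonucleotide of 60 bases, so a value stands for the transcript stretch it matches and not for all isoforms of the gene. The sequences of 5 probes are shown because the comparisons turn on them, namely the probes of the 3 pore genes with the clearest separation of the groups, the second Cacna1c probe and the probe of Cacna2d1. They are written in lower case and have no part set in capitals. For the brighter Cacna1c probe and for the Cacna1h probe only the first 30 bases are given. Positions are on the rn4 genome as annotated for the array, and exons and untranslated regions were not assigned.
Cacna1c, brighter probe (chr4:154895974-154896033, minus strand), first 30 bases: ctgtcccacgagatatgcaaaagcaatgca
Cacna1c, dimmer probe (chr4:154897419-154897478, minus strand): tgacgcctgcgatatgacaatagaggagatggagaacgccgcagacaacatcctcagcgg
Cacna1d (chr16:5384279-5384338, minus strand): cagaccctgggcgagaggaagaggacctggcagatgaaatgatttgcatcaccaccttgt
Cacna1h (chr10:14621473-14621532, minus strand), first 30 bases: gctcaacattcatttgacatccatttgctt
Cacna2d1 (chr4:15140270-15140329, minus strand): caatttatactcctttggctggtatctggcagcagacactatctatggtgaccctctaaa
The probes of Cacna1c lie 1445 bases apart, both in the transcript and in the genome. Cross-hybridization between related subunits was not tested.

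The question was whether transcripts of these subunits differed between heart primordia before and after heartbeat initiation. Signals are given as log2 of the processed signal less the 75th percentile of the same array, which lay between 1146 and 1702 intensity units, so a value of a probe can be compared between arrays but not with that of another probe. Arrays of a group correlated at 0.979 to 0.996. Slide 1 carried the array of pre-heartbeat replicate 1 and those of the first and second post-heartbeat replicates, and slide 2 carried the remaining 3. The slides themselves differed at 16.3% of the tested probes (limma, adjusted p under 0.05), so differences are given without a block, with the slide as a block, and within each slide.

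The pore genes Cacna1c (at its brighter probe), Cacna1d and Cacna1h had higher signals on every post-heartbeat array than on any pre-heartbeat array. The difference was 1.84 fold for Cacna1c and 1.74 fold for Cacna1d. At the dimmer Cacna1c probe the groups overlapped (limma adjusted p = 0.737, or 0.211 with the slide as a block). For Cacna1h only 1 of 3 pre-heartbeat arrays was well above background, so its difference depends on how background is treated, with a log2 value of 2.39 on the processed signal and 0.83 after normexp, a model of signal and background. In the same comparison Cacna2d1 was lower on every post-heartbeat array. The groups did not overlap in either direction at 11.5% of all tested probes, at 5.38% with the post-heartbeat group higher and at 6.14% with it lower. In limma without a block 0 of the 8 tested genes passed an adjusted p of 0.05, beside 0.14% of all tested probes. Cacna1c (brighter probe), Cacna1d and, with a lower signal, Cacna2d1 had an unadjusted p under 0.05, beside 7.01% of all tested probes. Cacna1h had one too, but is not counted because it was tested through the group in which it was high. When the slide was a block, Cacna1c (brighter probe) and Cacna1d passed, beside 1.62% of all tested probes (1.16% with a higher signal). Cacna1h had an adjusted p under 0.05 there too, but it was tested through the post-heartbeat group, in which it was high, and its call is not counted with theirs. Cacna1c and Cacna1d were also taken by the selection of the study's methods, a rise of at least 1.5 fold at an unadjusted p under 0.05. That selection took 1.89% of all tested probes as higher. It took Cacna1h too, which is again not counted because it was tested through the group in which it was high. The beta subunit genes and Cacna1s did not pass in either fit.

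**Figure D1:**
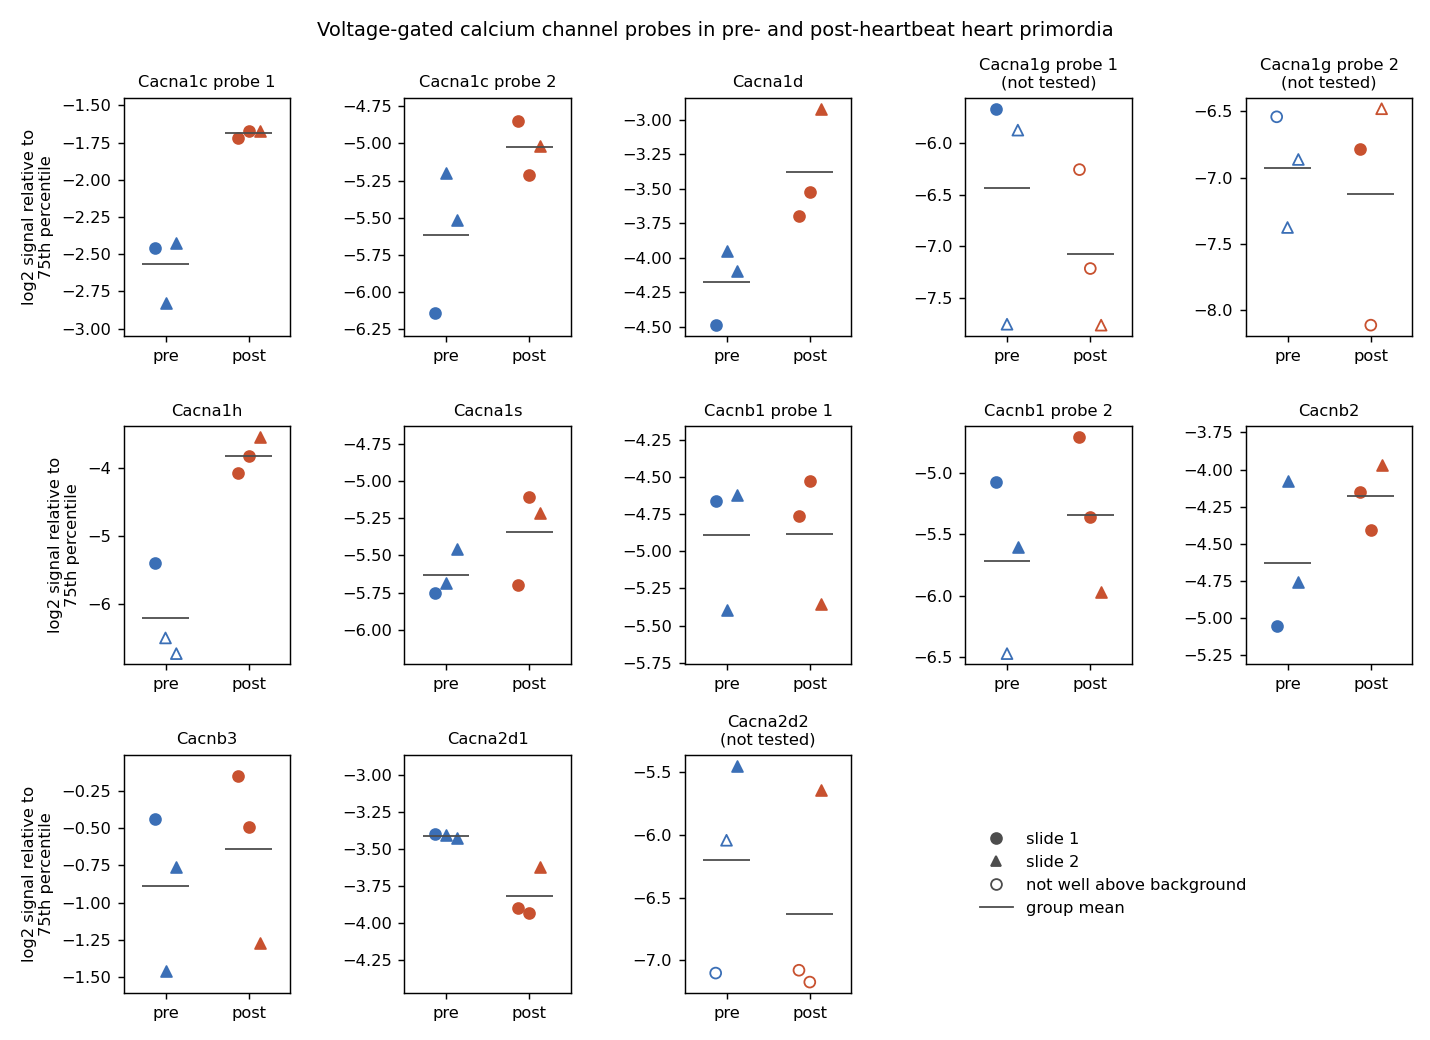
Signal of each of the 13 probes on the 6 arrays, as log2 of the processed signal less the 75th percentile of the array, with a scale of its own for each probe. Circles are arrays of slide 1 and triangles arrays of slide 2, open symbols mark a signal that was not well above background, and lines are group means of 3 arrays. The groups are apart for probe 1 of Cacna1c (the brighter one), Cacna1d, Cacna1h and Cacna2d1, and they overlap for the other probes.

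Cacna1c encodes the main L-type pore of the heart. The signal of its brighter probe, the mean of 10 spots on each array, was -2.46, -2.83 and -2.42 in the pre-heartbeat group (replicates 1 to 3) and -1.72, -1.67 and -1.67 in the post-heartbeat group. The post-heartbeat arrays lay close together and above all pre-heartbeat arrays, among which replicate 2 was lowest. The log2 difference was 0.88 (SE 0.16, n = 3 arrays for each group), with a limma adjusted p of 0.116 and an exact permutation p of 0.1 (two-sided), which is the smallest that 3 against 3 arrays can give. When the slide was a block the difference was 0.86 (SE 0.16, limma adjusted p = 0.0440), and within slides 1 and 2 it was 0.76 and 0.95. This call was lost when pre-heartbeat replicate 1 or any 1 post-heartbeat array was left out, with differences of 0.76 to 0.95. Without pre-heartbeat replicate 1 or post-heartbeat replicate 3 only 1 slide holds both groups. Those fits only repeat the difference within that slide and are no separate check.

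The dimmer Cacna1c probe read -6.14, -5.20 and -5.52 in the pre-heartbeat group and -4.85, -5.21 and -5.02 in the post-heartbeat group. Here pre-heartbeat replicate 2 was slightly above post-heartbeat replicate 2, so the groups overlapped. The difference had the same sign, 0.59 (SE 0.26, limma adjusted p = 0.737), or 0.73 when the slide was a block (adjusted p = 0.211). It was smaller, 0.15, when background was corrected by normexp.

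Cacna1d encodes the other L-type pore of cardiac cells, best known from the sinoatrial node. Its signal was -4.49, -3.95 and -4.10 before and -3.70, -3.52 and -2.92 after heartbeat initiation. Within the post-heartbeat group replicate 3, on slide 2, was highest, and in the pre-heartbeat group replicate 1, on slide 1, was lowest. The log2 difference was 0.80 (SE 0.25, limma adjusted p = 0.424, exact permutation p = 0.1). Arrays of slide 2 were higher than those of slide 1 by 0.58 for this probe (limma adjusted p = 0.0314). When the slide was a block the difference between the groups was 0.99 (SE 0.14, adjusted p = 0.0202), and within slides 1 and 2 it was 0.88 and 1.10. Without pre-heartbeat replicate 1 or without post-heartbeat replicate 3 that call was lost. Only 1 slide then holds both groups, so those fits repeat the difference within that slide. With normexp and no block the difference was 0.45.

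The difference between the groups was alike in size for both L-type pore genes. Cacna1c differed by 0.08 more than Cacna1d on the log2 scale, within the spread between arrays (SD 0.46 and 0.39 of the within-array difference in the pre- and post-heartbeat groups, exact permutation p = 0.8, adjusted p of 1 over 5 pairs of subunits). With the slide as a block the sign of this value turned, to -0.13. Cacna1s, the L-type pore of skeletal muscle, had signals from -5.76 to -5.45 in the pre-heartbeat group and from -5.70 to -5.11 in the post-heartbeat group, which overlapped, and its log2 difference was 0.29 (limma adjusted p = 0.866).

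Of the T-type pore genes chosen here, Cacna1h was the one tested. Cacna1i, a T-type pore gene outside those chosen, was also tested and is given below. The Cacna1h probe was read from 1 spot on each array. It gave -5.40, -6.50 and -6.74 in the pre-heartbeat group and -4.08, -3.83 and -3.55 in the post-heartbeat group. All post-heartbeat arrays were well above background, but of the pre-heartbeat arrays only replicate 1 was, and in processed intensity the pre-heartbeat arrays read 40.2, 12.6 and 13.9 units against 75.2, 99.2 and 145.6 units after heartbeat initiation. The probe was thus tested through the group in which it was high.

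The log2 difference of Cacna1h was 2.39 (SE 0.35, limma adjusted p = 0.0823, exact permutation p = 0.1), and with the slide as a block it was 2.26 (SE 0.32, adjusted p = 0.0200). Within slide 1, where the pre-heartbeat array was above background, the difference was 1.44, and within slide 2 it was 3.07. Without post-heartbeat replicate 3 the value with the slide as a block was 1.44, the difference within slide 1 again. Without pre-heartbeat replicate 1 it was the difference within slide 2, which rested on pre-heartbeat arrays that were not above background. With normexp and no block the adjusted p was 0.0782.

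Cacna1g, the other T-type pore gene known from the heart, was near background. Its probes were well above background on 1 of the 6 arrays each, with signals from -7.77 to -5.66 for one and from -8.12 to -6.48 for the other, and were not tested. The pair of Cacna1g and Cacna1h, like that of the alpha2delta genes, is among the 5 pairs of subunits but holds an untested probe, so its value is not given.

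Among the beta subunit genes, none passed the test in either fit. Cacnb2, which encodes the main beta subunit of the heart, read -5.05, -4.08 and -4.76 before and -4.15, -4.40 and -3.97 after heartbeat initiation. Pre-heartbeat replicate 2 lay among the post-heartbeat arrays, and the log2 difference of 0.45 (SE 0.27) had a limma adjusted p of 0.866, or 0.61 and 0.321 with the slide as a block. It was not above that of the other beta subunit genes by more than the spread between arrays, with a value higher by 0.44 than in Cacnb1 (exact permutation p = 0.5) and by 0.20 than in Cacnb3 (exact permutation p = 0.9), both with an adjusted p of 1.

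Cacnb3, a beta subunit found with many pores, read -0.44, -1.46 and -0.76 before and -0.15, -0.49 and -1.27 after heartbeat initiation. Its lowest array in each group was on slide 2, and slide 2 was lower than slide 1 by a log2 difference of -0.81 (limma adjusted p = 0.0402). Between the groups the difference was 0.25 (SE 0.36, adjusted p = 0.867) without a block and -0.019 with the slide as a block. Cacnb1, the beta subunit of skeletal muscle, differed by 0.01 (SE 0.29, adjusted p = 0.993) at its brighter probe and by 0.37 (SE 0.43, adjusted p = 0.866) at its other probe, which lies 1964 bases away in the transcript. Both Cacnb1 probes had overlapping groups.

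Of the alpha2delta genes, Cacna2d1, whose product is the alpha2delta subunit of ventricular channels, went the other way from the pore genes. It read -3.40, -3.41 and -3.42 in the pre-heartbeat group and -3.90, -3.93 and -3.62 in the post-heartbeat group. The pre-heartbeat arrays were nearly equal, and all post-heartbeat arrays were lower, replicate 3 least. The log2 difference was -0.41 (SE 0.14, limma adjusted p = 0.551, exact permutation p = 0.1), and -0.36 with the slide as a block (adjusted p = 0.411), with -0.51 within slide 1 and -0.21 within slide 2. Cacna2d2 was well above background on 1 array of each group, with signals from -7.17 to -5.45, and was not tested.

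**Figure D2:**
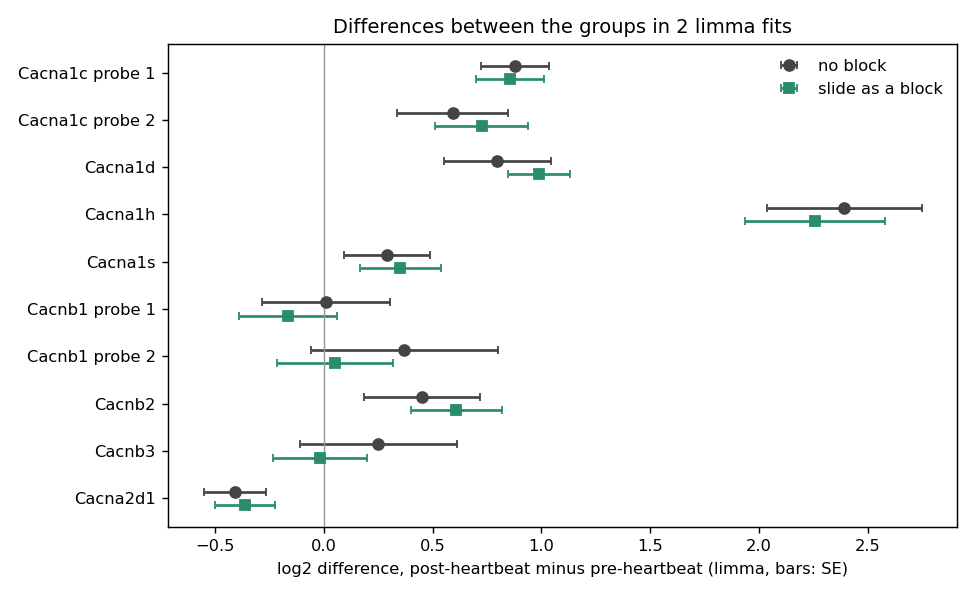
Log2 difference between the post-heartbeat and the pre-heartbeat group for the 10 tested probes, in limma without a block (circles) and with the slide as a block (squares), with bars of 1 SE and 3 arrays in each group. The slide block narrowed the error of Cacna1d from 0.25 to 0.14 and moved Cacnb3 from 0.25 to -0.02, and Cacna2d1 lay below 0 in both.

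The tested subunits had a median log2 difference of 0.37, with 7 of 8 genes higher (Cacnb1 by 0.01), and a median of 0.48 with 5 of 8 higher when the slide was a block, whereas without a block the median over all tested probes was -0.03 and 44.7% of them were higher. As a description this includes Cacna1h, which entered through its post-heartbeat signal, and leaves out the 2 genes near background.

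Other genes of the channel family were mostly near background. Of 16 further pore, beta, alpha2delta and gamma subunit genes on the array, 10 were not well above background on any of the 6 arrays at their brightest probe, among them the neuronal pore genes Cacna1b and Cacna1e and the beta subunit gene Cacnb4, and 3 were tested. Cacng6, which encodes a gamma subunit, read -3.35, -2.91 and -3.21 before and -1.53, -1.74 and -1.67 after heartbeat initiation, with no overlap. It rose by 1.51 on the log2 scale (SE 0.16, limma adjusted p = 0.0423, and 0.00840 when the slide was a block), and a second probe rose by 1.39 (adjusted p = 0.0364). The neuronal P/Q-type pore gene Cacna1a (0.25) and the T-type pore gene Cacna1i (0.30) did not pass, and with the slide as a block their differences were -0.05 and -0.02.

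Of 27 genes whose products bind or regulate the L-type channel (small GTPases, calmodulins, kinases, anchoring proteins and receptors), 21 were tested. Of these 12 were higher and 9 lower, beside 44.7% of all tested probes higher, and the median log2 difference was 0.05. Rrad alone passed, beside 0.14% of all tested probes without a block. It encodes a small GTPase that binds beta subunits and inhibits L-type current. It read -0.95, -1.11 and -0.79 before and 0.50, 0.78 and 0.48 after heartbeat initiation, a rise of 1.54 (SE 0.16, limma adjusted p = 0.0364, and 0.00917 when the slide was a block). The related GTPase gene Gem differed by 0.67 with an adjusted p of 0.475, and Rem2 by 0.37 with an adjusted p of 0.622. Catalytic and regulatory subunits of protein kinase A, calmodulin genes and Camk2 genes did not pass.

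Genes for calcium release from internal stores and for calcium removal, into the stores or out of the cell, were measured beside the channels. Of 18 such genes on the array 14 were tested, with a median log2 difference of 0.28. Of the 14, 10 were higher, beside 44.7% of all tested probes. In limma without a block 0.14% of all tested probes passed in either direction, and 3 of the 14 did, all higher. The latter were Pln, which encodes the SERCA inhibitor phospholamban (2.39, adjusted p = 0.0179), Atp2a1, a SERCA pump gene (1.98, adjusted p = 0.0199), and Casq1, a calsequestrin gene (1.71, adjusted p = 0.0238). Hrc, which encodes a calcium-binding protein of the reticulum lumen, passed with the slide as a block (0.75, adjusted p = 0.0441). The main cardiac SERCA gene Atp2a2 differed by -0.09 and the ryanodine receptor gene Ryr2 by -0.03, both with overlapping groups and adjusted p above 0.8. Among 7 tested calcium-dependent transcription factor and calcineurin regulator genes, 0 passed, and those with the smallest p were Mef2d (0.73, adjusted p = 0.784) and Rcan1 (-0.23, adjusted p = 0.866).

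Leaving out any 1 array without a block raised the adjusted p of Cacng6, Rrad, Pln, Atp2a1 and Casq1 above 0.05, up to 0.271. Their differences stayed within 1.41 to 2.53. Of all tested probes 0 or 1 were called as higher in those fits, so this loss is not particular to these genes. With the slide as a block these calls were lost without pre-heartbeat replicate 1 or post-heartbeat replicate 3, and over all tested probes 5 and 0 were then called as higher. In those fits only 1 slide holds both groups. The call of Hrc with the slide as a block was lost when any array but pre-heartbeat replicate 2 was left out.

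Markers of cardiac muscle had higher signals in the post-heartbeat group. All 8 (Tnnt2, Tnni1, Myh6, Myh7, Myl4, Myl7, Actc1 and Ttn) were well above background on all 6 arrays. The group mean of each was higher after heartbeat initiation, beside 44.7% of all tested probes, and the median log2 difference was 0.67. The groups overlapped for Tnnt2, Actc1 and Ttn. Their mean signal on an array was 4.70 to 5.32 in the pre-heartbeat group and 5.67 to 5.96 in the post-heartbeat group. In limma without a block 0 of the 8 passed. With the slide as a block Myh6 (1.06), Myh7 (1.19) and Myl4 (1.04) did, beside 1.62% of all tested probes. The other markers differed by 0.46 (Tnnt2) to 0.83 (Tnni1) in that fit, beside 0.86 for Cacna1c and 0.99 for Cacna1d.

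Of 8 neural ectoderm markers 4 were tested and 2 passed, both lower, in at least 1 fit. Of all tested probes 0.14% passed without a block and 1.62% with the slide as a block. The 4 had a mean signal of -1.38 to -0.95 before and -2.15 to -1.75 after heartbeat initiation, and Hes5 and Zic1 were well above background on 0 arrays. Otx2, a transcription factor gene of the anterior neural plate, fell by 1.56 (limma adjusted p = 0.0199), and Tubb3, a neuronal tubulin gene, passed with the slide as a block (-1.21, adjusted p = 0.0160). Sox2 (-0.21) and Neurog2 (-0.27) had overlapping groups and did not pass. Of the other lists, 0 of 5 tested skeletal muscle and somite markers, 0 of 8 endothelial and 0 of 7 endoderm markers passed in either fit, and of 6 erythroid markers Epor passed with the slide as a block (1.18, adjusted p = 0.0397). These marker calls with the slide as a block were lost without pre-heartbeat replicate 1 or post-heartbeat replicate 3, where only 1 slide holds both groups. Those of Myh6, Myh7, Myl4 and Epor were also lost without post-heartbeat replicate 1. Without a block Otx2 lost its call when any 1 array was left out (adjusted p up to 0.207), and 0 or 1 of all tested probes were then called as lower. Among the skeletal muscle and somite markers, Myf5, Myog, Pax3 and Tcf15 were well above background on all 6 arrays, and Myod1 and Mesp2 on 0. The part of the muscle and neural markers in the results of Cacna1c, Cacna1d, Cacna1h and Cacna2d1 was not tested.

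**Figure D3:**
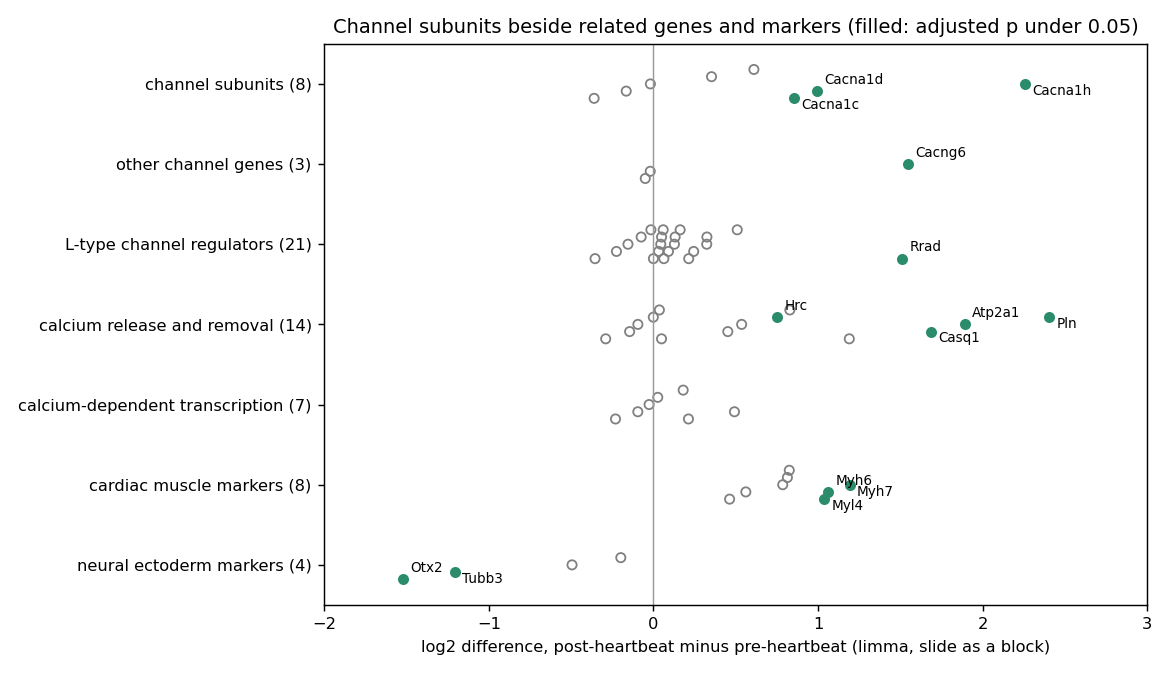
Log2 difference between the groups in limma with the slide as a block, for 1 probe of each tested gene, in rows by list with the number of tested genes in brackets. Filled and named points had an adjusted p under 0.05. All 8 cardiac muscle markers lie above 0 and all 4 neural ectoderm markers below it, while the L-type regulators center near 0 apart from Rrad.

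Over the 6 arrays, the genes whose signal followed that of Cacna1c most closely were Car11 (Pearson r 0.999), Pde4dip (0.997), Myo16 (0.995), siat7D (0.993) and Ankrd37 (0.993). For Cacna1d they were Sphkap (0.997), Ppp2r3a (0.995), Lmo7 (0.994), Trim55 (0.991) and Hopx (0.989). These are the 5 highest among 12705 genes for 6 points that share array and slide, given as a description, and no gene was in both lists.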

How the data were processed

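Processed signals deposited for 6 arrays, a background-subtracted intensity per spot from Agilent Feature Extraction 10.7.3.1 per the labels, were the values used. The linear ratios deposited by the authors, made in GeneSpring with a 75th percentile shift and a baseline per probe, served as an alternative. In R 4.3.3, the log2 of each signal less the 75th percentile of its array was averaged over the spots of a probe, without control and outlier spots. A probe was called well above background when at least 50% of its spots were, and was tested when this held on all 3 arrays of at least 1 group. Another 2 probes with 1 value lacking were left out. Groups were compared with limma 3.58.1 and Benjamini-Hochberg adjustment over 19297 probes (threshold 0.05), and single values by two-sided exact permutation. The procedure was run on simulated data without a slide effect, so that run does not cover the slide differences seen here.

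Members were matched by symbol. The probe with the highest mean signal stood for a gene. The members and lists were chosen with earlier results of these data known. Named are all members, list genes past the threshold with or without the slide as a block (otherwise the 2 with the smallest p), and the 5 genes most alike to Cacna1c and Cacna1d. Alternatives were the slide or replicate number as a block, normexp (offset 50), quantile normalization, the percentile over detected probes, other filters, the ratios of the authors, an intensity trend, the selection of the study's methods (1.5 fold and unadjusted p under 0.05) and leaving out each array. The number of arrays limits the precision. Figures were drawn with matplotlib 3.10.9.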

Additional observations from a re-analysis of the deposited data

How the results depend on the processing

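Direction held for Cacna1c, Cacna1d, Cacna1h, Cacna1s, Cacnb2 and Cacna2d1 under every alternative that gave a value, with log2 differences of 0.71 to 0.95 for Cacna1c, 0.45 to 0.99 for Cacna1d and 0.83 to 2.80 for Cacna1h over the alternatives that changed 1 choice. Probes called, 23 higher and 4 lower, became 223 and 89 with the slide as a block, 43 and 7 with normexp, 38 and 7 with an intensity trend, and 365 and 222 by the methods' selection, of which 0 and 0 passed after Benjamini-Hochberg adjustment. Without a filter they were 1 and 0, and 11, 12 and 10 were higher with quantile normalization, the percentile over detected probes and the ratios of the authors. The slide block called 3 subunits (Cacna1c 0.86, Cacna1d 0.99, Cacna1h 2.26), and so did the methods' selection (0.88, 0.80 and 2.39), with Cacna1h tested only through its post-heartbeat signal in each. Cacnb1 reversed to -0.17 with the slide block, -0.051 with normexp and -0.0073 with the ratios of the authors, and Cacnb3 to -0.019 with the slide block. The difference between Cacna1c and Cacna1d reversed to -0.13 with the slide block, and that between Cacnb2 and Cacnb3 to -0.023 with normexp. The causes were not tested, and no test was made of Cacna1s where more than 50% of the spots, or of Cacna1h where all 6 arrays, had to be well above background.

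Leaving out 1 array without a block gave 0 or 1 probes called as higher and 0 or 1 as lower. With the slide as a block, as chosen after seeing the data, 0 to 297 were higher and 1 to 139 lower. Over both kinds of fit 0 to 4 subunits were called. The log2 differences ranged from 0.75 to 0.95 for Cacna1c, 0.57 to 1.10 for Cacna1d, 1.44 to 3.07 for Cacna1h, -0.35 to 0.25 for Cacnb1, 0.24 to 0.78 for Cacnb2, and -0.16 to 0.57 for Cacnb3. Between Cacna1c and Cacna1d they ranged from -0.16 to 0.30, and between Cacnb2 and Cacnb3 from -0.23 to 0.76, both without a block. Cacnb2 was called in 1 of these, with the slide as a block and without pre-heartbeat replicate 2 (0.78, adjusted p = 0.0423).

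Whether replicate numbers pair the samples could not be told. The deviations of same-numbered arrays correlated at 0.65, -0.28 and 0.49, and 3 of 6 arrays correlated best with their own number. Both arrays of replicate 1 were on slide 1 and both of replicate 3 on slide 2, while those of replicate 2 were on different slides. For replicates 1 and 3 a shared slide and a shared number therefore cannot be told apart. The arrays of replicate 2 shared the number only, and theirs was the value of -0.28. With the replicate block 95 probes were higher and 49 lower, and of the subunits 1 was called, Cacna1h (2.39, adjusted p = 0.0260), which was tested through its post-heartbeat signal. Precision for Cacna1g, Cacna2d2 and pre-heartbeat Cacna1h was limited by signals near background.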
